A study of Homo sapiens with 16 samples.

Results

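The genes described here are 45 components of the human DNA replication machinery and of deoxynucleotide supply, listed by name and role, with earlier results of these data known. They are 45 of 18080 genes in the deposited count table, and all 45 were among the 15472 genes with enough counts to test. They fall into 6 roles: origin recognition and loading (7 genes), the CMG helicase with MCM10 (12), polymerases and primase (9), the sliding clamp and its loader (6), single-strand binding and lagging-strand maturation (6), and nucleotide supply (5). The treated group was wild-type HL60, a human line of acute promyelocytic leukaemia, in 50 nM SY-351, which inhibits the kinase CDK7, for 5 h. The control group was the same line given the solvent DMSO for 5 h, and both were grown in Iscove's medium with fetal bovine serum. CDK7 phosphorylates RNA polymerase II as part of the general transcription factor TFIIH and also activates other cyclin-dependent kinases, and the study examined transcription, splicing and termination after its inhibition. Each group had 4 numbered replicates, each recorded as 2 technical repeats and counted as 1 library of polyadenylated RNA. The labels do not call the replicates independent cultures, so the variation behind all p-values below may be technical. The tests estimate the spread of each gene partly from other genes, so a p-value does not rest on that gene's own libraries alone.

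In each S phase the origin recognition complex, CDC6 and CDT1 load the MCM2 to MCM7 ring onto DNA, and geminin (GMNN) blocks CDT1 so that an origin fires once. CDC45 and the GINS complex turn the ring into the active CMG helicase, polymerase alpha with primase lays down primers, and polymerases epsilon and delta extend them on the sliding clamp PCNA, which the RFC complex loads. RPA coats single strands, FEN1, DNA2 and LIG1 process and join the lagging strand, and ribonucleotide reductase, thymidylate synthase, thymidine kinase and dUTPase supply and guard the deoxynucleotide pool. Many of these genes are transcribed at the G1/S transition under the E2F factors.

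Promoters are shown for the 4 members with the smallest adjusted p, from 250 bases before to 50 after the start site, as RefSeq gives them on GRCh38.p14. In each case the start site was the same base as the start of the counted interval. Capitals mark the 8-base E2F words TTTCCCGC, TTTGGCGC, TTTGCCGC and TTTCGCGC and the CCAAT box, on either strand.
GINS3, chr16:58392221-58392520, plus strand: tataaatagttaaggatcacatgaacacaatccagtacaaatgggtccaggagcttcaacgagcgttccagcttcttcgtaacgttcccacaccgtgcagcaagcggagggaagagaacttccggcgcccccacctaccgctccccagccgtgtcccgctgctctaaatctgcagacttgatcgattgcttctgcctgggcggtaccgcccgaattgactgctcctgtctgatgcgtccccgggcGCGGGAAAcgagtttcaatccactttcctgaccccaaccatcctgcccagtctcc
POLA2, chr11:65261712-65262011, plus strand: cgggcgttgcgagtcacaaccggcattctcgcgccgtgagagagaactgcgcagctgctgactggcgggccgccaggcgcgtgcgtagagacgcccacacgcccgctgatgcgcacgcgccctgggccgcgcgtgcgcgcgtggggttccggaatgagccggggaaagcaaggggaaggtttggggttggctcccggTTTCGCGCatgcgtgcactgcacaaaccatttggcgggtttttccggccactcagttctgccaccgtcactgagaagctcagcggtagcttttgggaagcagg
PCNA, chr20:5126573-5126872, minus strand: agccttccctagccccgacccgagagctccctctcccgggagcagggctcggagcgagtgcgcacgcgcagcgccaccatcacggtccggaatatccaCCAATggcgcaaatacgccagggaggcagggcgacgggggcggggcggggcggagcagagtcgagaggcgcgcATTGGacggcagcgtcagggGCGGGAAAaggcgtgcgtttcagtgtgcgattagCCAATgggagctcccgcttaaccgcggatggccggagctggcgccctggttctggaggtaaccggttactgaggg
FEN1, chr11:61792661-61792960, plus strand: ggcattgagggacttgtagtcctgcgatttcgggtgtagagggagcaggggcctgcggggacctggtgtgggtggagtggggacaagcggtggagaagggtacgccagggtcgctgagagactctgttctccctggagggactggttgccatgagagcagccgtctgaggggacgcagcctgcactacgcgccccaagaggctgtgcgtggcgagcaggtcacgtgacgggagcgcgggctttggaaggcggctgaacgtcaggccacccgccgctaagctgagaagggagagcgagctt
The E2F word began 5 bases before the start site in GINS3, 53 before it in POLA2 and 59 before it in PCNA. PCNA had CCAAT boxes 152, 79 and 25 bases before its start, and its E2F word shares bases with a GC box (GGGCGG). The FEN1 window held none of these words, which says only that these letters are absent from it.

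Of the 45 members, 38 had a promoter in the table, and 18 of these (47.4%) held an E2F word, against 3.33% of the 27305 promoters in the table. CCAAT was found in 57.9% of member promoters and 35.7% of all, the GC box GGGCGG in 71.1% of member promoters and 44.6% of all, and the CHR element TTTGAA in 2.63% of member promoters (RRM1 alone) and 15.4% of all. All 4 were searched on both strands. These matches describe letters and were not tested for binding.

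DMSO libraries 1 and 2 stood apart from every other library, and results that rest on them are given with and without them. Assigned counts came to 43.3 to 77.9 M in the SY-351 libraries and to 103.7 to 124.2 M in the DMSO libraries. Pearson's r of log2 CPM (counts scaled to a common library total) across 15472 genes, which are not replicates, was 0.987 to 0.994 among SY-351 libraries, 0.983 between DMSO 1 and 2 and 0.987 between DMSO 3 and 4. It was 0.762 to 0.794 between those DMSO pairs. Between SY-351 libraries and DMSO 3 or 4 it was 0.937 to 0.954. MPO, the granule enzyme typical of HL60 cells, measured 28258 to 32719 CPM with SY-351 and 12116 to 48112 CPM in DMSO. CEBPA, a myeloid transcription factor, measured 85.9 to 90.9 CPM with SY-351 and 395 to 4330 CPM in DMSO, with log2 folds of -4.69 over 8 libraries (edgeR adjusted p = 0.0132) and -2.38 without DMSO 1 and 2. SPI1 ranged from 284 to 313 CPM with SY-351 and from 272 to 2689 CPM in DMSO, CD33 from 74.9 to 80.3 CPM with SY-351 and from 3.1 to 86.4 CPM in DMSO, and CTSG from 586 to 670 CPM with SY-351 and from 19.4 to 280 CPM in DMSO. All 5 myeloid markers with a row were thus present in every library, though not at 1 level. Erythroid, lymphoid and epithelial markers lay at or below 3.4 CPM in all 8 libraries, except the B cell gene CD79A at 14.5 to 15.9 CPM with SY-351 and 4.53 to 12.5 CPM in DMSO. No added RNA standard was counted, so levels are relative, and fewer cells cannot be told apart from less RNA per cell.

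More replication genes fell than rose with all 8 libraries, as was also the case for all tested genes. With all 8 libraries 9 of the 45 members (20%) fell and 0 rose at an adjusted p below 0.05 (edgeR quasi-likelihood test, Benjamini-Hochberg), against 13.6% of all tested genes lower and 2.91% higher. The 9 were the licensing factors CDC6 and CDT1, the helicase subunits MCM6, GINS2 and GINS3, the polymerase alpha subunit POLA2, the clamp PCNA, the clamp loader subunit RFC2 and the flap endonuclease FEN1. At an unadjusted p below 0.05, 18 members were lower and 1 higher, against 22.6% of all genes lower and 9.27% higher. DESeq2 called 19 members lower and 1 higher (RPA1, of the single-strand binding complex), against 24.6% of all genes lower and 8.9% higher. The median log2 fold, SY-351 over DMSO, was -0.68 over the members and 0.004 over all tested genes.

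Without DMSO 1 and 2, 29 members (64.4%) fell and 5 rose, against 26.4% of all genes lower and 21.9% higher. The 5 that rose were the polymerase subunits POLA1, POLD1 and POLD2, RPA1 and the thymidylate synthase TYMS. The median log2 fold of the members was then -0.65, and that of all genes 0.012. The standard error (SE) in this fit was 0.15 to 0.17 for all members but GINS3 (0.19) and PRIM2 (0.23). Its p-values thus rest largely on a spread shared across genes, and say little about each gene's own libraries. With DMSO 1 and 2 as the only controls 22 members (48.9%) fell and 20 rose, against 38.4% of all genes lower and 40.8% higher, so that the members' shares lay near those of all genes. Called lower against both control pairs were 13 members: CDT1, MCM2, MCM4, MCM5, MCM6, MCM7, GINS2, GINS3, POLA2, PCNA, RFC2, RFC5 and FEN1, against 16.6% of all genes. Called higher against both were POLA1 and RPA1, against 12% of all genes. The pairs called 16 members in opposite directions, against 15.7% of all genes. In 14 members, those 13 and ORC6, each SY-351 library was under each DMSO library, against 18.2% of all genes. In 3 (POLA1, RPA1 and RPA3) each was above, against 15.5% of all genes, and in 28 the groups overlapped.

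Leaving out 1 library at a time gave other counts of lower members in most cases. It was 15 without DMSO 3, 10 without DMSO 2, 9 without DMSO 4, 7 without DMSO 1, 3 without SY-351 1 or 3, and 4 without SY-351 2 or 4. The share of all genes called lower moved as well, between 22.4% without DMSO 3 and 2.99% without SY-351 1. GINS3, POLA2 and FEN1 passed in each of these fits, with adjusted p up to 0.0301, 0.0402 and 0.0301.

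**Figure D1:**
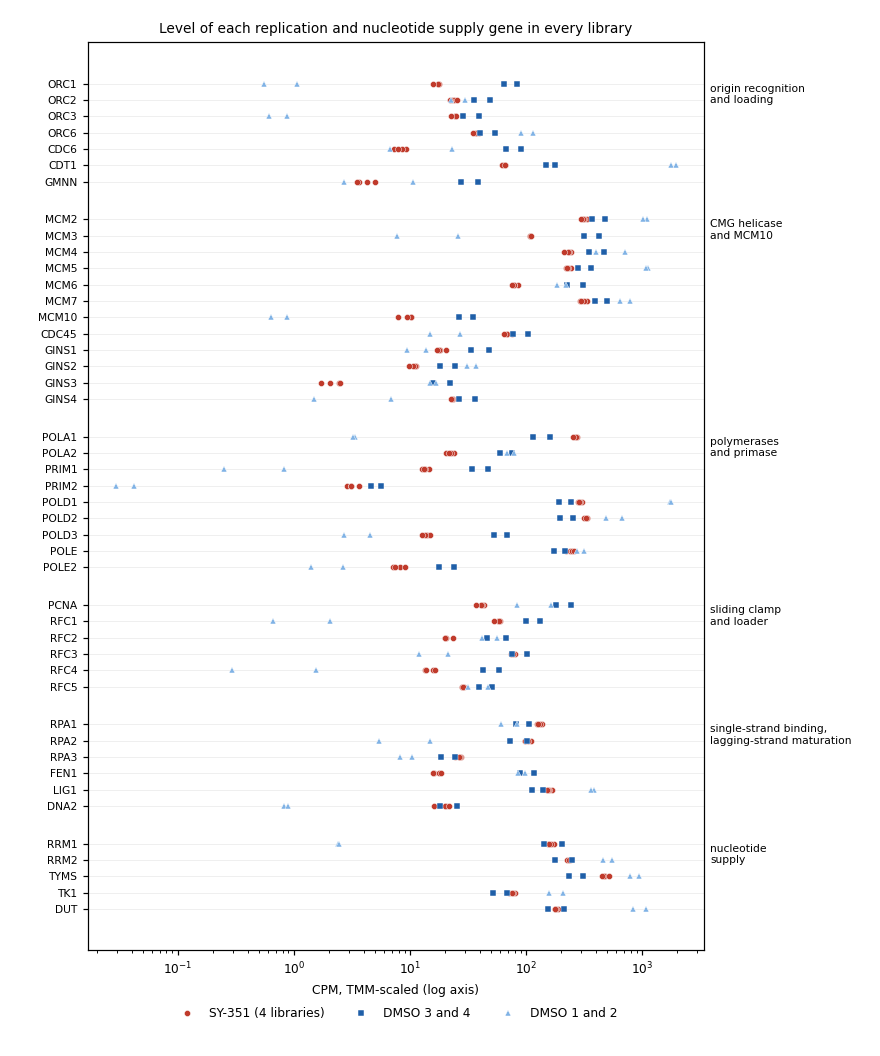
Level of each of the 45 genes in every library, in TMM-scaled CPM on a log axis, with 4 red circles for SY-351, 2 dark squares for DMSO 3 and 4 and 2 light triangles for DMSO 1 and 2, grouped by role. The 4 SY-351 libraries lie close together for most genes, while DMSO 1 and 2 lie more than 4-fold below DMSO 3 and 4 in 19 genes and more than 4-fold above them in 3.

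Of the 7 origin recognition and loading genes 2 fell with 8 libraries, CDC6 and CDT1 (median log2 fold -1.12), against 13.6% of all genes. Without DMSO 1 and 2, 6 of the 7 fell (all but ORC6, median -1.32), against 26.4% of all genes. Relative to DMSO 1 and 2 alone 2 fell and 2 rose, against 38.4% of all genes lower and 40.8% higher. CDC6, the ATPase that loads the MCM ring (chromosome 17, 40287879 to 40304657, GRCh38), measured 7.32, 9.31, 8.52 and 7.86 CPM with SY-351, against 23.3, 6.73, 67.4 and 90.8 CPM in DMSO 1 to 4. The SY-351 libraries were close to each other, and DMSO 2 alone lay below them. For CDC6 the log2 fold was -2.51 ± 0.71 (SE, edgeR adjusted p = 0.0464), and -3.24 ± 0.16 (SE, adjusted p = 3.18e-92) without DMSO 1 and 2. Its call with 8 libraries held without DMSO 2 and was lost without each of the other 7 libraries in turn (adjusted p as high as 0.14).

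CDT1, which brings the MCM ring to origins (chromosome 16, 88803789 to 88809258), measured 64.8, 65.8, 62 and 66.1 CPM with SY-351, against 1771, 1965, 149 and 179 CPM in DMSO 1 to 4. All DMSO libraries were higher, DMSO 1 and 2 by far the most. For CDT1 the log2 fold was -3.97 ± 0.94 (SE, edgeR adjusted p = 0.0255) with 8 libraries but -1.32 ± 0.16 (SE, adjusted p = 1.82e-16) without DMSO 1 and 2. The 8-library call ended without DMSO 1 or any single SY-351 library (adjusted p up to 0.0942). Geminin, the inhibitor of CDT1, measured 3.53 to 5 CPM with SY-351, against 10.6, 2.7, 27.5 and 38.5 CPM in DMSO 1 to 4. GMNN did not pass with 8 libraries (log2 fold -2.27 ± 0.72, SE, edgeR adjusted p = 0.0655) but fell 7.93-fold relative to DMSO 3 and 4 (adjusted p = 3.77e-71).

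Among subunits of the origin recognition complex, ORC1, its cell-cycle regulated ATPase, measured 15.7 to 17.8 CPM with SY-351, against 1.07 and 0.558 CPM in DMSO 1 and 2 and 64.2 and 83.4 CPM in DMSO 3 and 4. Its log2 fold was -2.09 ± 0.15 (SE, edgeR adjusted p = 4.72e-40) relative to DMSO 3 and 4 but 4.24 relative to DMSO 1 and 2, and -1.12 with 8 libraries (adjusted p = 0.577). For this gene DMSO 1 and 2 lay far below both other sets. ORC2 ranged from 22.4 to 25.4 CPM with SY-351 and from 22.5 to 48.7 CPM in DMSO, with log2 folds of -0.53 over 8 libraries and -0.81 without DMSO 1 and 2. ORC3, the member of this role with the fold nearest 0, measured 24.6, 24.3, 24.8 and 22.8 CPM with SY-351, against 0.874, 0.617, 28.9 and 39.6 CPM in DMSO 1 to 4. With 8 libraries the log2 fold of ORC3 was 0.46 ± 1.14 (SE, edgeR adjusted p = 0.803), and it fell by 0.48 on the log2 scale without DMSO 1 and 2 (adjusted p = 0.00452). ORC6 was below every DMSO library in every SY-351 library, at 35.2 to 39.6 CPM with SY-351 against 40.5 to 115 CPM in DMSO, and passed neither with 8 libraries (log2 fold -1.01, edgeR adjusted p = 0.0889) nor without DMSO 1 and 2 (log2 fold -0.33, edgeR adjusted p = 0.077).

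The CMG helicase genes moved together relative to DMSO 3 and 4, but not relative to DMSO 1 and 2. Of 12 genes, MCM10 included, 3 fell with 8 libraries (MCM6, GINS2 and GINS3, median log2 fold -0.99), against 13.6% of all genes. All 12 fell without DMSO 1 and 2 (median -0.89), against 26.4% of all genes. With DMSO 1 and 2 as the only controls 7 fell and 5 rose, against 38.4% of all genes lower and 40.8% higher. The log2 folds of the 12 then ran from -3.02 to 3.50. GINS3, a subunit of the tetramer that joins CDC45 to the ring (chromosome 16, 58392471 to 58406147), measured 1.73, 2.43, 2.04 and 2.48 CPM with SY-351, against 16.9, 15, 15.7 and 22.3 CPM in DMSO 1 to 4. The groups were far apart, and the control pairs did not separate for this gene. Its log2 fold was -3.01 ± 0.31 (SE, edgeR adjusted p = 0.00288), -3.11 ± 0.19 without DMSO 1 and 2 and -3.02 with them as the only controls.

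The other GINS subunits differed from GINS3 in size. GINS2 (chromosome 16, 85676198 to 85688954) measured 11.3, 11, 10.6 and 9.76 CPM with SY-351, against 30.8, 37.5, 18.3 and 24.4 CPM in DMSO 1 to 4, with no overlap. For GINS2 the log2 fold was -1.38 ± 0.30 (SE, edgeR adjusted p = 0.0184) and -0.98 ± 0.16 (SE, adjusted p = 8.43e-09) without DMSO 1 and 2. GINS1 ranged from 17 to 20.5 CPM with SY-351 and from 9.44 to 47.8 CPM in DMSO, and GINS4 from 22.6 to 23.5 CPM with SY-351 and from 1.48 to 36.2 CPM in DMSO. Neither passed with 8 libraries, at log2 folds of -0.52 and 0.38, and both fell without DMSO 1 and 2, by 1.13 and 0.41 on the log2 scale. The interval of GINS2 overlaps GSE1 on the other strand, and without a stated stranded kit their reads may not be separable.

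MCM6 (chromosome 2, 135839626 to 135876443), a subunit of the helicase ring, measured 86.3, 79.3, 79.2 and 75.7 CPM with SY-351, against 186, 221, 226 and 311 CPM in DMSO 1 to 4. Each SY-351 library was below each DMSO library. For MCM6 the log2 fold was -1.56 ± 0.27 (SE, edgeR adjusted p = 0.00952), and -1.72 ± 0.15 (SE, adjusted p = 6.53e-28) without DMSO 1 and 2. The 8-library calls of MCM6 and GINS2 were lost without any 1 of the SY-351 libraries (adjusted p as high as 0.0588 and 0.0841).

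The remaining ring subunits, which work in 1 complex, differed from each other in DMSO 1 and 2. MCM3 measured 108 to 110 CPM with SY-351, against 25.8 and 7.78 CPM in DMSO 1 and 2 and 314 and 427 CPM in DMSO 3 and 4. MCM5 measured 220 to 247 CPM with SY-351, against 1127 and 1073 CPM in DMSO 1 and 2 and 279 and 361 CPM in DMSO 3 and 4. MCM3 was thus far lower, and MCM5 far higher, in DMSO 1 and 2 than in any other library. Without those libraries MCM3 fell by 1.75 ± 0.15 on the log2 scale (SE, edgeR adjusted p = 6.27e-29) and MCM5 by 0.44 ± 0.16 (SE, edgeR adjusted p = 0.0115). With 8 libraries neither passed, at log2 folds of -0.83 for MCM3 and -1.62 for MCM5 (adjusted p = 0.604 and 0.069). MCM2 ranged from 300 to 334 CPM with SY-351 and from 373 to 1114 CPM in DMSO, MCM4 from 212 to 247 CPM with SY-351 and from 349 to 709 CPM in DMSO, and MCM7 from 290 to 338 CPM with SY-351 and from 396 to 794 CPM in DMSO. These 3 did not pass with 8 libraries (log2 folds of -1.25, -1.06 and -0.91) and fell without DMSO 1 and 2, by 0.42, 0.80 and 0.51 on the log2 scale. The 2 controls left there also differed. DMSO 3 and 4 were at 373 and 479 CPM for MCM2, 349 and 473 CPM for MCM4, and 396 and 503 CPM for MCM7. DMSO 4 lay above DMSO 3 in every other member too, so this gap is not particular to these 3 genes. CPM here are scaled by TMM factors, 1.606 for DMSO 3 and 1.208 for DMSO 4. What part that scaling has in the gap was not tested. MCM7 overlaps AP4M1 on the other strand.

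MCM10, which helps the helicase start, measured 7.98 to 10.3 CPM with SY-351, against 0.635 and 0.881 CPM in DMSO 1 and 2 and 26.4 and 35.3 CPM in DMSO 3 and 4. Its log2 fold was -0.74 with 8 libraries (edgeR adjusted p = 0.678) and -1.67 ± 0.16 (SE, edgeR adjusted p = 1.4e-25) without DMSO 1 and 2. CDC45, with the fold nearest 0 of this role, measured 75.7, 68.7, 68.7 and 64.4 CPM with SY-351, against 27, 14.8, 77.1 and 104 CPM in DMSO 1 to 4. The SY-351 libraries lay between the control pairs. For CDC45 the log2 fold was 0.31 ± 0.57 (SE, edgeR adjusted p = 0.729) with 8 libraries and fell by 0.37 on the log2 scale without DMSO 1 and 2 (adjusted p = 0.0434).

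**Figure D2:**
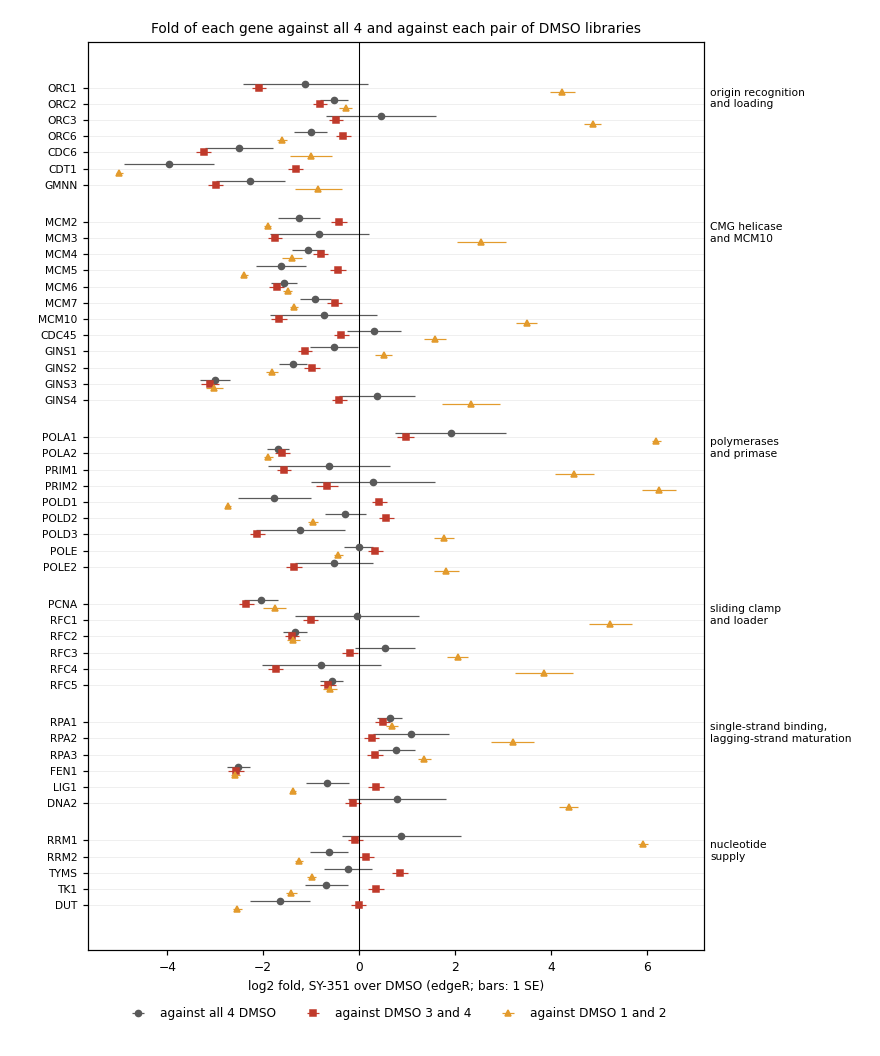
Log2 fold of SY-351 over DMSO for each gene (edgeR, bars are 1 SE) against all 4 DMSO libraries (grey circles), DMSO 3 and 4 (red squares) and DMSO 1 and 2 (orange triangles). The 3 values lie close together for GINS3, FEN1, RFC2 and POLA2, and lie on both sides of 0 for genes such as ORC1, MCM3 and RFC1. The value of PRIM2 against DMSO 1 and 2 rests on as few as 2 counts.

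Polymerase and primase genes did not move as a block. Of 9 genes 1 fell with 8 libraries (POLA2, median of the role -0.52), a share of 11.1% that is near the 13.6% of all genes. Without DMSO 1 and 2, 5 fell and 3 rose (median -0.67), against 26.4% of all genes lower and 21.9% higher. Relative to DMSO 1 and 2 alone 4 fell and 5 rose, against 38.4% of all genes lower and 40.8% higher. Within the polymerase alpha and primase complex, POLA2, its regulatory subunit (chromosome 11, 65261962 to 65298685), measured 23.8, 22.8, 20.4 and 21.6 CPM with SY-351, against 79.6, 69.1, 59.6 and 76.5 CPM in DMSO 1 to 4. All 4 controls were alike, at more than any SY-351 library. For POLA2 the log2 fold was -1.69 ± 0.23 (SE, edgeR adjusted p = 0.0049), and -1.60 ± 0.15 (SE, adjusted p = 6.85e-24) without DMSO 1 and 2.

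POLA1, the catalytic subunit of the same complex, measured 257 to 278 CPM with SY-351, against 3.36 and 3.26 CPM in DMSO 1 and 2 and 116 and 162 CPM in DMSO 3 and 4. Every SY-351 library was above every control. Its log2 fold was 1.91 ± 1.16 (SE, edgeR adjusted p = 0.293) with 8 libraries and 0.97 ± 0.17 (SE, edgeR adjusted p = 2.81e-08) without DMSO 1 and 2. POLA1 has by far the longest counted interval of the members, 303.1 kb, introns included. The primase subunit PRIM1 measured 12.8 to 14.6 CPM with SY-351, against 0.832 and 0.25 CPM in DMSO 1 and 2 and 34.4 and 47.2 CPM in DMSO 3 and 4, and it fell by 1.57 on the log2 scale without DMSO 1 and 2 (edgeR adjusted p = 1.33e-23). PRIM2, the large primase subunit, measured 2.85 to 3.63 CPM with SY-351 and 4.64 and 5.63 CPM in DMSO 3 and 4. Without DMSO 1 and 2 PRIM2 fell by 0.67 ± 0.23 on the log2 scale (SE, edgeR adjusted p = 0.00827). With 8 libraries the log2 folds were -0.62 for PRIM1 and 0.29 for PRIM2 (edgeR adjusted p = 0.764 and 0.892). In DMSO 2 it had 2 counts, under the floor of 3, its row covers a short transcript, and a near-identical partial copy of the gene may share its reads.

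The subunits of polymerase delta also differed in direction relative to DMSO 3 and 4. POLD1, the catalytic subunit, measured 280 to 303 CPM with SY-351, against 1753 and 1764 CPM in DMSO 1 and 2 and 192 and 247 CPM in DMSO 3 and 4. POLD3, an accessory subunit, measured 12.7 to 14.9 CPM with SY-351, against 2.72 and 4.52 CPM in DMSO 1 and 2 and 53.2 and 68.1 CPM in DMSO 3 and 4. For both genes the SY-351 libraries lay between the control pairs. Without DMSO 1 and 2 POLD1 rose by 0.42 on the log2 scale (edgeR adjusted p = 0.021), and POLD3 fell 4.35-fold (edgeR adjusted p = 4.09e-42). With 8 libraries neither passed, and the sign of POLD1 was the other way, at log2 folds of -1.77 for POLD1 and -1.23 for POLD3 (edgeR adjusted p = 0.153 and 0.396). POLD2 ranged from 319 to 335 CPM with SY-351 and from 195 to 672 CPM in DMSO, and rose by 0.57 on the log2 scale without DMSO 1 and 2 (edgeR adjusted p = 0.00143), against a log2 fold of -0.29 with 8 libraries (adjusted p = 0.67).

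POLE, the catalytic subunit of the leading-strand polymerase epsilon, had the fold nearest 0 of this role. It measured 241, 251, 261 and 223 CPM with SY-351, against 319, 275, 174 and 218 CPM in DMSO 1 to 4, between the pairs. For POLE the log2 fold was -0.01 ± 0.30 (SE, edgeR adjusted p = 0.977), and 0.34 ± 0.16 (SE, adjusted p = 0.0716) without DMSO 1 and 2. Its partner POLE2 measured 7.14 to 9.03 CPM with SY-351 and 1.42 to 24 CPM in DMSO, and fell 2.57-fold without DMSO 1 and 2 (edgeR adjusted p = 1.43e-15), while with 8 libraries its log2 fold was -0.52 (adjusted p = 0.682).

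PCNA and the clamp loader were lower in most members relative to DMSO 3 and 4, but not with all controls. Of 6 genes 2 fell with 8 libraries (PCNA and RFC2, median log2 fold -0.68), against 13.6% of all genes. Without DMSO 1 and 2, 5 fell (all but RFC3, median -1.20), against 26.4% of all genes. Relative to DMSO 1 and 2 alone, 3 fell and 3 rose, against 38.4% of all genes lower and 40.8% higher. PCNA (chromosome 20, 5114953 to 5126622) measured 43.5, 42, 41 and 36.8 CPM with SY-351, against 165, 84.6, 181 and 243 CPM in DMSO 1 to 4. The groups did not overlap, and DMSO 2 was the lowest control. For PCNA the log2 fold was -2.04 ± 0.35 (SE, edgeR adjusted p = 0.00899), and -2.35 ± 0.15 (SE, adjusted p = 3.09e-50) without DMSO 1 and 2. The call with 8 libraries ended without SY-351 1 or SY-351 3 (adjusted p up to 0.0534).

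RFC2, a small subunit of the loader (chromosome 7, 74231502 to 74254458), measured 20.2, 20.6, 20.2 and 23.7 CPM with SY-351, against 41.8, 56.9, 46.5 and 67.1 CPM in DMSO 1 to 4. SY-351 4 was above the other 3 and still below every control. For RFC2 the log2 fold was -1.33 ± 0.25 (SE, edgeR adjusted p = 0.0119), and -1.40 ± 0.15 (SE, adjusted p = 1.11e-18) without DMSO 1 and 2. It, too, lost its 8-library call without any 1 of the SY-351 libraries (adjusted p as high as 0.0678).

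RFC1, the large subunit, had the fold nearest 0 of the clamp genes, at 57.4, 60.3, 58.7 and 53.2 CPM with SY-351, against 2.07, 0.661, 101 and 133 CPM in DMSO 1 to 4. That fold lay between controls far below and controls above the SY-351 libraries. With 8 libraries the log2 fold of RFC1 was -0.05 ± 1.29 (SE, edgeR adjusted p = 0.984), and -1.01 ± 0.16 (SE, adjusted p = 6.64e-10) without DMSO 1 and 2. RFC4 measured 13.5 to 16.4 CPM with SY-351, against 1.55 and 0.294 CPM in DMSO 1 and 2 and 42.5 and 58.7 CPM in DMSO 3 and 4. RFC5 ranged from 28 to 29.3 CPM with SY-351 and from 31.4 to 51.2 CPM in DMSO, and RFC3 from 75 to 81 CPM with SY-351 and from 12 to 103 CPM in DMSO. Without DMSO 1 and 2 the log2 folds were -1.74 for RFC4 and -0.65 for RFC5, which passed, and -0.19 for RFC3, which did not (edgeR adjusted p = 0.358). With 8 libraries they were -0.79, -0.57 and 0.54, and none of these 3 passed (edgeR adjusted p = 0.686, 0.147 and 0.575). RFC4 overlaps EIF4A2 on the other strand.

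In single-strand binding and lagging-strand maturation the members divided. With 8 libraries 1 of 6 fell (FEN1, median of the role 0.71), a share of 16.7% that is near the 13.6% of all genes. Without DMSO 1 and 2, 1 fell (FEN1) and 1 rose (RPA1), with a median of 0.29, against 26.4% of all genes lower and 21.9% higher. Relative to DMSO 1 and 2 alone 2 fell and 4 rose, against 38.4% of all genes lower and 40.8% higher. FEN1, which cuts the flaps of Okazaki fragments (chromosome 11, 61792911 to 61797238), measured 16.3, 17.7, 18.6 and 15.7 CPM with SY-351, against 98.9, 86, 89 and 117 CPM in DMSO 1 to 4. The control libraries were alike here, including DMSO 1 and 2. For FEN1 the log2 fold was -2.52 ± 0.24 (SE, edgeR adjusted p = 0.00288). It was -2.57 ± 0.16 (SE, edgeR adjusted p = 1.98e-59) without DMSO 1 and 2, and -2.58 with them as the only controls.

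LIG1, the ligase that joins the fragments FEN1 has trimmed, did not pass. It ranged from 152 to 168 CPM with SY-351, against 387 and 363 CPM in DMSO 1 and 2 and 113 and 141 CPM in DMSO 3 and 4, so that SY-351 lay between the pairs. Its log2 fold was -0.66 with 8 libraries (edgeR adjusted p = 0.346) and 0.35 without DMSO 1 and 2 (edgeR adjusted p = 0.065). DNA2, the other flap nuclease, ranged from 16.2 to 21.8 CPM with SY-351 and from 0.818 to 25.4 CPM in DMSO, with log2 folds of 0.79 and, without DMSO 1 and 2, -0.13 (edgeR adjusted p = 0.621 and 0.542).

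RPA1, the large DNA-binding subunit of RPA, had the fold nearest 0 of this role, and its groups did not overlap. It measured 138, 131, 125 and 127 CPM with SY-351, against 84.6, 61.2, 81.9 and 106 CPM in DMSO 1 to 4. With 8 libraries the log2 fold of RPA1 was 0.64 ± 0.26 (SE, edgeR adjusted p = 0.13), and it rose by 0.49 on the log2 scale without DMSO 1 and 2 (adjusted p = 0.00668). RPA2 ranged from 98.1 to 110 CPM with SY-351 and from 5.39 to 102 CPM in DMSO, and RPA3, which overlaps UMAD1 on the other strand, from 24.7 to 27.8 CPM with SY-351 and from 8.2 to 24.4 CPM in DMSO. Neither passed, with log2 folds of 1.08 and 0.78 over 8 libraries and 0.26 and 0.33 without DMSO 1 and 2 (edgeR adjusted p = 0.196 and 0.0797 there).

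In nucleotide supply 0 of 5 genes fell with 8 libraries, against 13.6% of all genes. Without DMSO 1 and 2 it was again 0 of 5, against 26.4% of all genes. A count of 0 among 5 genes is too small to set this role apart from these shares. Relative to DMSO 1 and 2 alone, 4 of the 5 fell and RRM1 rose, against 38.4% of all genes lower and 40.8% higher. Across these 5 genes the median log2 fold was -0.63 with 8 libraries and 0.15 without DMSO 1 and 2, where TYMS rose. At an unadjusted p below 0.05 edgeR had 1 of them lower with 8 libraries and 0 lower and 2 higher without DMSO 1 and 2, and with 8 libraries DESeq2 called 1 lower (DUT) and limma-voom 0. Whether this role differs from the others was not tested. TYMS, which makes dTMP and had the fold nearest 0 here, measured 484, 470, 455 and 525 CPM with SY-351, against 792, 948, 234 and 309 CPM in DMSO 1 to 4. SY-351 again lay between the control pairs. For TYMS the log2 fold was -0.24 ± 0.50 (SE, edgeR adjusted p = 0.765) with 8 libraries and 0.86 ± 0.17 (SE, adjusted p = 1.6e-06) without DMSO 1 and 2. Its interval overlaps the antisense gene ENOSF1.

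The ribonucleotide reductase subunits were close to DMSO 3 and 4 but not to DMSO 1 and 2. RRM1, the large subunit, measured 156 to 174 CPM with SY-351, against 2.41 and 2.45 CPM in DMSO 1 and 2 and 144 and 206 CPM in DMSO 3 and 4. RRM2, the small subunit made in S phase, measured 226 to 242 CPM with SY-351, against 466 and 549 CPM in DMSO 1 and 2 and 179 and 248 CPM in DMSO 3 and 4. The log2 folds without DMSO 1 and 2 were -0.08 ± 0.16 for RRM1 and 0.15 ± 0.16 for RRM2 (SE, edgeR adjusted p = 0.736 and 0.484), and with 8 libraries 0.88 and -0.63 (edgeR adjusted p = 0.651 and 0.323). TK1, the S phase thymidine kinase, ranged from 72 to 80.3 CPM with SY-351 and from 52.1 to 209 CPM in DMSO, with log2 folds of -0.68 over 8 libraries and 0.35 without DMSO 1 and 2. DUT, the dUTPase, ranged from 178 to 189 CPM with SY-351 and from 156 to 1074 CPM in DMSO, with log2 folds of -1.65 and -0.01. Neither TK1 nor DUT passed in either fit.

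Other genes of the same processes were counted from 2 lists. Of 32 other replication factors tested 8 fell (25%) and 0 rose with 8 libraries, against 13.6% of all genes lower and 2.91% higher. Without DMSO 1 and 2, 15 fell (46.9%) and 5 rose (15.6%), against 26.4% of all genes lower and 21.9% higher. Their median log2 fold was -0.79 with 8 libraries and -0.31 without DMSO 1 and 2. CHTF8, a subunit of an alternative clamp loader, measured 22.6, 21.7, 21.9 and 21.9 CPM with SY-351, against 78.3, 99.3, 85.7 and 122 CPM in DMSO 1 to 4 (log2 fold -2.13 ± 0.25, SE, edgeR adjusted p = 0.00321). MCMBP, which binds the MCM ring, measured 22.4, 22.1, 22.9 and 24.2 CPM with SY-351, against 105, 126, 73.3 and 95.9 CPM in DMSO 1 to 4 (log2 fold -2.13 ± 0.26, SE, edgeR adjusted p = 0.00334). Both were apart from all controls, and relative to DMSO 3 and 4 the log2 fold was -2.22 for CHTF8 and -1.86 for MCMBP. The other 6 that fell were MCM9, DONSON, TICRR, DBF4, RNASEH2A and CHAF1A.

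Of 27 other nucleotide synthesis enzymes tested 3 fell (11.1%) and 1 rose (3.7%) with 8 libraries, against 13.6% of all genes lower and 2.91% higher. Without DMSO 1 and 2, 9 fell (33.3%) and 7 rose (25.9%), against 26.4% of all genes lower and 21.9% higher. The shares of this list lay near those of all genes. Its median log2 fold was 0.04 with 8 libraries and 0.03 without DMSO 1 and 2. DHODH, of pyrimidine synthesis, fell to 15.5, 16.9, 16.7 and 14.1 CPM with SY-351, against 40.1, 38.5, 30 and 38.2 CPM in DMSO 1 to 4 (log2 fold -1.22 ± 0.23, SE, edgeR adjusted p = 0.0126). Relative to DMSO 3 and 4 its log2 fold was -1.09. Every SY-351 library was below every DMSO library. GMPS and ADSS2, of purine synthesis, were the others that fell.

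The difference between the DMSO pairs followed the GC content of the transcripts among these genes and, more weakly, the length of the counted interval. Across the 45 members, GC content and the log2 ratio of DMSO 1 and 2 over DMSO 3 and 4 had a Pearson's r of 0.64 and a Spearman's rho of 0.64, against 0.57 and 0.60 across 15356 tested genes with a known transcript. The log10 length of the counted interval had r -0.43 and rho -0.44 with that ratio, against -0.20 and -0.28 across the tested genes. All points share the same 4 libraries. PRIM2, with the lowest GC content of the members (36.1%), had a ratio of -7.16, while CDT1 and POLD1, with the highest (64.9% each), had ratios of 3.51 and 3.00. DUT went the other way, at 41% GC and a ratio of 2.36. The fold of SY-351 without DMSO 1 and 2 had an r of 0.21 with GC content and of 0.30 with the log10 length of the counted interval over the members, and of 0.06 and 0.07 over all these genes. What part GC content or interval length has in the members' folds was not tested.

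**Figure D3:**
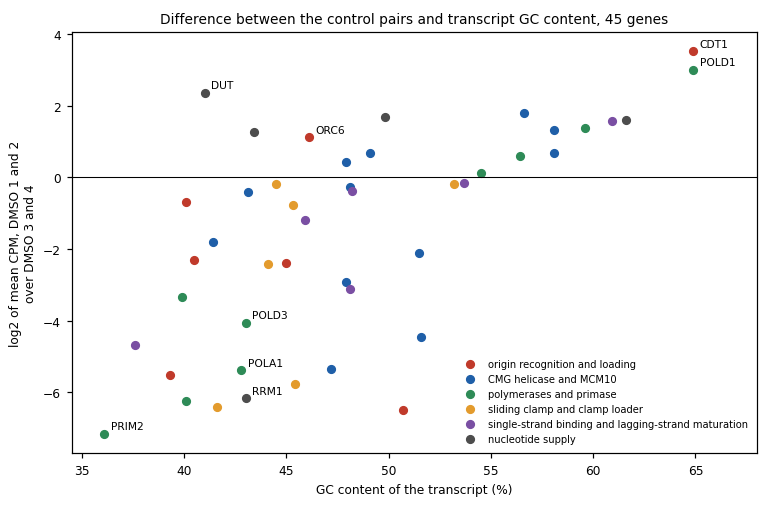
Each of the 45 genes by the GC content of its transcript (x axis, percent) and the log2 ratio of mean CPM in DMSO 1 and 2 over DMSO 3 and 4 (y axis), coloured by role. Members of low GC content lie mostly below 0 and those of high GC content above it (Pearson's r 0.64, n = 45).

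Genes that fell were found both among members with an E2F word and among those without one. With 8 libraries 7 of 18 with a word fell (median log2 fold -0.87), against 2 of 20 without one (-0.65). Without DMSO 1 and 2, 13 of 18 with a word fell and 2 rose (-1.05), against 12 of 20 that fell and 3 that rose without one (-0.66). The called genes without a word were RFC2 and FEN1. These shares are a description and were not tested.

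Splicing was compared in a table by the authors, which gives for each local splicing variation (the set of junctions that leave or enter 1 exon) the expected share of each option in SY-351 and in control cells. It has no values per library, no error, and does not say which control libraries entered. A folder name recorded with it mentions outliers removed, but not which libraries these were. The smallest top difference listed is 0.104, so the table is a selection and does not describe all junctions. Of the 45 members, 14 had a variation in the authors' deposited table (31.1%), against 18.9% of tested genes. In 11 of the 14 (78.6%) an option reached a posterior probability of at least 0.95, against 64.2% of the 3700 genes in that table. The 11 were ORC3, GINS1, MCM10, POLA2, POLD3, POLE2, RFC1, RFC4, RFC5, FEN1 and DNA2, and CDC45, GINS3 and PRIM2 were listed below it. None of the 5 nucleotide supply genes was listed.

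In the authors' deposited table the option most used in control cells had a lower share with SY-351 in 25 of the 27 member variations (92.6%), against 89.4% of all listed. The summed share of junctions absent from the annotation was higher with SY-351 in 23 of the 26 that had any (88.5%), against 75.5% of all. The first of these shares was near that of the whole table, and neither was tested.

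Among the clamp loader genes, the authors' deposited table gave RFC5 the widest difference of the members. In 1 of its 2 variations an option that keeps an intron had an expected share of 0.002 with SY-351 and 0.853 in control, a difference of -0.85. The main junction of RFC4 had a share of 0.361 with SY-351 and 0.819 in control, and that of RFC1 a share of 0.67 with SY-351 and 0.969 in control, in the authors' deposited table. Retained introns did not move 1 way: in 2 variations of RFC4 the intron option had shares of 0.369 and 0.510 with SY-351 and 0.162 and 0.111 in control, and in a further variation of RFC5 it had 0.133 with SY-351 and 0.396 in control, in the authors' deposited table. In that variation of RFC5 the leading junction was higher, at 0.677 with SY-351 and 0.503 in control (authors' deposited table, probability 0.254).

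For the helicase, the authors' deposited table lists an unannotated junction of MCM10 at 0.434 with SY-351 and 0.001 in control, a difference of 0.42. The main junction of GINS1 was at 0.357 with SY-351 and 0.838 in control in 1 of its 4 variations in the authors' deposited table. In ORC3 the main junction was at 0.459 with SY-351 and 0.756 in control there, per the authors' deposited table.

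For the polymerases, the authors' deposited table put the main junction of POLA2 at 0.362 with SY-351 and 0.879 in control, that of POLD3 at 0.438 with SY-351 and 0.95 in control, and that of POLE2 at 0.659 with SY-351 and 0.994 in control. Unannotated junctions of POLA2 took a summed 0.634 with SY-351 and 0.109 in control in the authors' deposited table. For lagging-strand maturation, the authors' deposited table gave FEN1 a main junction at 0.487 with SY-351 and 0.859 in control, and DNA2 one at 0.515 with SY-351 and 0.955 in control in 1 of its 4 variations. FEN1 and POLA2 were the members that both fell with 8 libraries and reached 0.95 in this table.

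**Figure D4:**
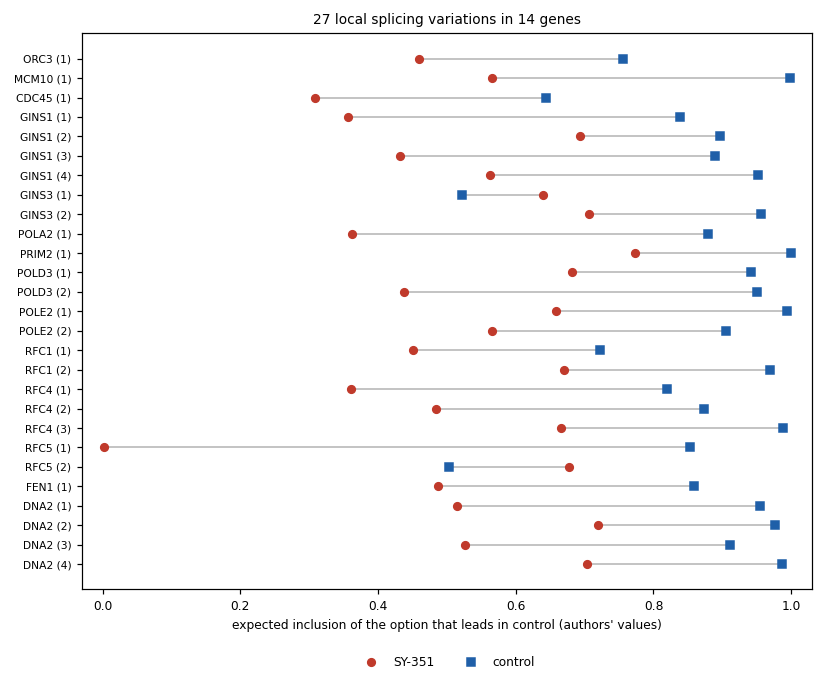
Expected share of the option that leads in control cells, for the 27 variations of 14 members in the authors' table, with SY-351 as red circles and control as blue squares joined by a line. The SY-351 share is the lower of the 2 in 25 variations, the exceptions being RFC5 (2) and GINS3 (1).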

How the data were processed

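Whole-number read counts were made by the authors with featureCounts 1.6.2 (strand setting 1), per the file headers, over 1 interval per RefSeq transcript, introns included. GRCh38 and DESeq2 are named in the submitters' processing notes. The aligner and how technical repeats were joined are not given in the sources used here. Interval starts in the file count from 0 (62.7% are 1 below the RefSeq start) and are printed from 1. The second deposited table is the authors' comparison of splicing: expected inclusion shares, their difference as a score (turned here to SY-351 minus control) and a posterior probability of a difference of at least 0.2, per the file headers. Its coordinates do not lie on the GRCh38 positions of their genes, so its genome build is unknown and no splicing coordinate is printed.

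Symbols came from RefSeq for 17867 rows and from GENCODE for 134. Counts were tested with edgeR 4.0.16 (R 4.3.3; TMM, filterByExpr, robust glmQLFit, glmQLFTest, two-sided, Benjamini-Hochberg over all 15472 tested genes, threshold 0.05), SY-351 over DMSO with no other term. SE is the size of the log2 fold over the square root of F. CPM are TMM-scaled, and 3 counts, taken as the floor, equal 0.0241 to 0.0693 CPM unscaled. The TMM factors were 0.661, 0.657, 1.606 and 1.208 for DMSO 1 to 4 and 1.017 to 1.07 for the SY-351 libraries. Alternatives were DESeq2 1.42.0, limma-voom 3.58.1, other scalings, no filter, a replicate block, each library left out, and either DMSO pair left out. The edgeR steps were run on simulated counts, which do not hold the split of the DMSO pairs. The reading of the splicing values was checked on made values, which tests the code alone. Named are all members past the threshold, the member of each role with the fold nearest 0, the 2 smallest adjusted p of each other list, and ranges for the rest. A gene that this rule names among the other nucleotide synthesis enzymes is not reported here. The members, roles, lists and motifs were chosen with earlier results of these data known. Genes sharing a symbol (13 rows) were set aside.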

Additional observations from a re-analysis of the deposited data

Results flagged for a closer look

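RFC2 in the SY-351 group had 1 library far from the others. SY-351 4 measured 23.7 CPM and the other 3 libraries 20.2 to 20.6 CPM, so that the gap to the nearest was 0.869 of the whole range, over Dixon's 95% critical value for 4 samples. Of 90 groups of 4 libraries examined (45 genes in each group), 1 passed this value. Chance passes it in about 1 of 20 groups.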

How the results depend on the processing

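Depth limits the members little, since only PRIM2 came under 3 counts in a library. What limits them is that the 4 DMSO libraries fall into unlike pairs, that the replicates may not be separate cultures, and that levels are relative. Counts of lower members were 9 with 8 libraries, 29 without DMSO 1 and 2, 22 with these as the only controls and 19 with DESeq2, and those of higher members 0, 5, 20 and 1 in the same order. Leaving out 1 library gave 3 to 15 lower members. Of other replication factors 8 were lower with 8 libraries, 15 without DMSO 1 and 2, 18 against these alone, 15 with DESeq2 and 4 to 14 with 1 library left out. Of other nucleotide synthesis enzymes the counts were 3, 9, 10, 5 and 0 to 6 in that order. Of all genes 2100, 4172, 5996, 3806 and 473 to 3438 were lower and 450, 3466, 6372, 1377 and 61 to 1885 higher, with 215 higher under total count scaling. Other size factors, no filter and limma-voom kept each of these counts within 1.5 times, as did total count scaling for the rest. Splicing changes were found in 11 members at a probability of 0.95 or 0.9 and in 8 at 0.99.

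Same-numbered libraries of the groups did not deviate together (r of -0.015, -0.041, 0.006 and -0.176 for numbers 1 to 4). The DMSO deviations also hold the split between the DMSO pairs, so these values cannot decide whether the numbers pair the libraries. A replicate block left 0 genes of any list, lower or higher, past the edgeR threshold. At an unadjusted p below 0.05 the block gave 9 lower and 0 higher members, and 2288 lower and 1361 higher genes. The median log2 fold of all genes was 0.004 with 8 libraries, -0.111 with DESeq2 size factors, 0.233 with limma-voom, 0.23 with the block and 0.195 against DMSO 1 and 2 alone.

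The sign of 14 members turned without DMSO 1 and 2: the log2 fold was then -0.48 for ORC3, -0.37 for CDC45, -0.41 for GINS4, -0.67 for PRIM2, 0.42 for POLD1, 0.57 for POLD2, 0.34 for POLE, -0.19 for RFC3, 0.35 for LIG1, -0.13 for DNA2, -0.08 for RRM1, 0.15 for RRM2, 0.86 for TYMS and 0.35 for TK1. With DMSO 1 and 2 as the only controls it turned to 4.24 for ORC1, 2.55 for MCM3, 3.50 for MCM10, 0.51 for GINS1, 4.49 for PRIM1, 1.78 for POLD3, 1.82 for POLE2, 5.24 for RFC1 and 3.86 for RFC4. In limma-voom it turned to 0.92 for ORC1, 0.70 for MCM3, 0.91 for MCM10, 1.59 for PRIM1, 0.23 for POLE2, 1.90 for RFC1 and 1.19 for RFC4. With the replicate block these were 1.14, 0.51, 0.97, 1.54, 0.30, 2.19 and 1.12, with 0.02 for POLE and 0.00 for TYMS. Total count scaling gave -0.11 for PRIM2, 0.13 for POLE and 0.09 for TYMS, and no filter 0.02 for POLE. With 1 library left out the log2 fold crossed 0 in MCM10 (-1.14 to 0.05), CDC45 (0.00 to 0.83), GINS4 (0.00 to 1.02), PRIM1 (-1.03 to 0.21), PRIM2 (-0.12 to 1.02), POLD2 (-0.49 to 0.07), POLE (-0.12 to 0.13), POLE2 (-0.89 to 0.16), RFC1 (-0.46 to 0.75), RFC4 (-1.20 to 0.03) and TYMS (-0.46 to 0.12). The cause of these turns was not tested. None of the 9 members called lower with 8 libraries turned in any alternative run. The call of CDC6 alone was also lost under total count scaling, no filter, limma-voom and when DMSO 1 and 2 served as the sole controls.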
